A study of Mus musculus with 4 samples.

Results

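Blood formation in the bone marrow is steered by a small set of DNA-binding proteins, and 10 of them were followed here through the marrow of mice with myeloma: *Cebpa*, *Cebpb*, *Cebpd*, *Cebpe*, *Spi1*, *Gfi1*, *Klf4*, *Runx1*, *Gata1* and *Gata2*. They were matched by gene symbol, and 10 of the 32285 genes in the count matrices were members. The mice were the 5TMM model, in which 5TGM1-luc myeloma cells were injected intravenously into C57BL/KawRij mice, so the vehicle mice carried the tumour as well. Purinostat mesylate (PM, an inhibitor of class I and class IIb histone deacetylases) was given to 2 mice at 10 mg/kg for 24 h, and 2 mice received vehicle. Bone marrow was freed of erythrocytes by lysis, so the erythroid class held the cells that survived that step, and each mouse gave 1 droplet library of 3′ transcript ends.

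The C/EBP proteins bind DNA as dimers. C/EBPα (*Cebpa*) is required for granulocyte and monocyte progenitors to form, C/EBPε (*Cebpe*) for the later neutrophil granules, and C/EBPβ and C/EBPδ (*Cebpb*, *Cebpd*) for inflammatory and emergency responses. PU.1 (*Spi1*) acts in all myeloid cells, the repressor GFI1 favours neutrophils, KLF4 favours monocytes, RUNX1 serves stem cells and several lineages, and GATA1 and GATA2 serve erythroid cells, megakaryocytes, mast cells and basophils.

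After filtering, 39743 cells remained, between 7826 and 13387 per mouse, with a median of 4717 to 6067 UMIs (unique molecules counted) per cell. Clustering without the 10 members among the genes used gave 30 clusters, of which 29 were named from marker genes and formed 21 cell classes. Any pair of libraries shared between 18 and 39 cell barcodes, at most 0.421% of the smaller library. Doublet calls were 5.74% in PM mouse 1 and 1.80% to 2.44% in the other mice. The threshold was set in each mouse and recovered 48.2% of simulated doublets in PM mouse 1 and 29.8% to 32.75% in the others. The rates are therefore not directly comparable. UMIs were summed per mouse and class and are given as counts per 1000000 UMIs of that mouse and class (CPM). The split of granulocyte and monocyte progenitors (GMP) into a monocyte and a neutrophil cluster, the class led by *Orm1* and the cycling monocyte progenitor class were set after the clusters had been seen.

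The members divided the marrow between them. *Gfi1* was highest in GMP with neutrophil markers at 272 CPM, the mean of the 4 mice, and next came early neutrophils, cycling precursors of the neutrophil line, at 83.8 CPM, without overlap between mice. *Cebpe* followed 1 stage later, at 652 CPM in early neutrophils and 640 CPM in the *Orm1*-led class, whose mice overlapped. Its level was 320 CPM in immature and 65.5 CPM in mature neutrophils. Mean *Cebpd* was higher at each step of the same path, from 183 CPM in GMP with neutrophil markers to 602 CPM in mature neutrophils, its highest class. The mice of the mature class stood above those of the immature class, while the *Orm1*-led and immature classes overlapped. Along this path the median fell from 22173.5 to 2866 UMIs per cell, and the share of cells with a *Cebpd* UMI from 90.6% to 75.3%. After thinning to 1000 UMIs per cell, that share rose from 18.2% in GMP with neutrophil markers to 44.4% in mature neutrophils. It was 23.9% in the early, 25.6% in the *Orm1*-led and 28.6% in the immature class. The fall in the share was therefore not seen at equal depth.

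*Spi1* was highest in mature neutrophils at 592 CPM, overlapping with non-classical monocytes at 566 CPM. *Klf4* was high in the monocyte line and in the class named plasmacytoid dendritic cells (294 CPM). The conventional dendritic cell marker *Cd209a* was among the top genes of that class, and no conventional class was formed. Its *Klf4* is therefore not shown to belong to plasmacytoid cells alone. *Klf4* stood at 561 CPM in cycling monocyte progenitors, 425 CPM in non-classical and 311 CPM in classical monocytes, neighbours in that order that overlapped. In the *Orm1*-led, immature, early and mature neutrophils it was at 1.56 to 3.16 CPM. *Cebpb* was highest in non-classical monocytes at 2482 CPM, above mature neutrophils at 1148 CPM with no overlap.

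A basophil-like class, named from basophil and mast cell genes such as *Mcpt8*, *Prss34* and *Fcer1a*, carried the highest levels of *Cebpa* (394 CPM), *Runx1* (861 CPM) and *Gata2* (2052 CPM), each above the next class in all mice. The eosinophil genes *Prg2*, *Prg3* and *Epx* were at 0 to 5.78 CPM there, so the class is not shown to hold eosinophils. *Gata1* was highest in erythroid cells at 167 CPM and overlapped with the megakaryocyte and platelet class at 116 CPM. In haematopoietic stem and progenitor cells (HSPC) *Gata2* had its next level, 313 CPM, and *Runx1* was at 335 CPM. These class levels describe the cells and were not tested, since the classes were drawn from the same cells.

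**Figure D1:**
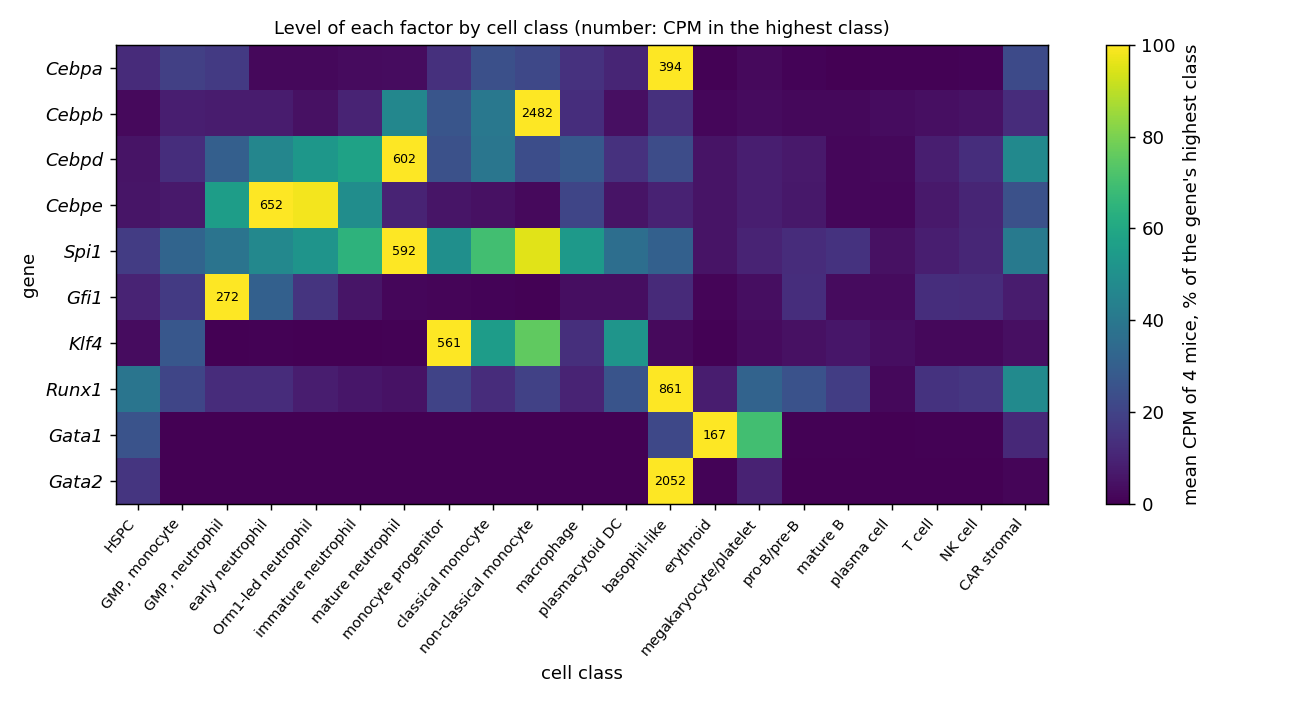
Mean CPM of the 4 mice for each member (rows) in 21 cell classes (columns), as a percentage of that member's highest class; the number printed is the CPM in that class. *Gfi1*, *Cebpe* and *Cebpd* peaked in turn along the neutrophil classes, and *Cebpa*, *Runx1* and *Gata2* peaked in the basophil-like class.

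Other genes followed the members across the 21 classes. Among 10597 genes with at least 20 CPM in some class, *Cebpe* was closest to *Camp*, a granule peptide (Pearson r = 0.96 on log2 CPM), then *Agpat2* and *Abca13*. *Cebpd* was closest to *Prdx5* and *Hp* (both 0.97) and *Mtus1*. *Spi1* was closest to *Fes*, *Csf2ra* and *Rab31* (0.94 to 0.95), and *Klf4* to *Pld4*, *Apba1* and *Ms4a6c* (0.92 to 0.95). *Gata1* was closest to *Gfi1b*, a relative of *Gfi1* (0.95), *Adcy6* and *Sdsl*, and *Gata2* to *Ptger3*, *Slc22a3* and *Slc18a2* (0.92 to 0.96). *Cebpb* was closest to *Gm9733*, *Smpdl3a* and *Apoc2* (0.90 to 0.91), *Runx1* to *Zfp518b*, *Tacc1* and *Smim24* (0.84 to 0.90), *Gfi1* to *Ankrd28*, *Sh2b1* and *Zfp141* (0.83 to 0.86), and *Cebpa* to *Ccl9*, *Papss2* and *Fut4* (0.85 to 0.86). All classes came from the same 4 libraries, so these correlations are descriptions over 21 points.

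The question of the study was what PM did to the marrow cells, and for the members the comparison was PM against vehicle within each class. A member was called when edgeR's quasi-likelihood test gave an adjusted p (Benjamini-Hochberg over all genes of the class) under 0.05 and the log2 fold change exceeded 0.5 in size. Of 210 member and class pairs, 163 passed the filter on low counts, 10 were called higher in PM mice and 1 lower. Over all genes and the same 21 classes 1.42% of tested pairs were called higher and 0.612% lower, so the number of lower members was near the background. The called pairs were 4 of *Gfi1*, 5 of *Cebpe*, 1 of *Cebpa* and 1 of *Runx1*. *Cebpb*, *Cebpd*, *Spi1*, *Klf4*, *Gata1* and *Gata2* were called in no class by edgeR, and DESeq2 called 0. Of their 92 tested pairs 15 had an unadjusted edgeR p under 0.05, 13 of them higher in PM mice. The share of all genes at that p differed by class and was not pooled. In immature neutrophils 1550 of 10057 tested genes were higher and 1278 lower at that p. In classical monocytes 902 of 10583 were higher and 701 lower, and in HSPC 289 of 10718 and 244. The 15 pairs are therefore not shown to exceed the background. With 2 mice a group an exact permutation test cannot go below p = 0.33, and the p-values rest on the spread between these mice.

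*Gfi1* rose in all 4 neutrophil classes after the progenitors. The gene lies on mouse chromosome 5 from 107716657 to 107726036 on the minus strand (GRCm38, GENCODE vM21). In early neutrophils the vehicle mice had 55.5 and 62.9 CPM and the PM mice 93.1 and 124 CPM, without overlap. That was a log2 fold change of 0.79 ± 0.12 (SE, edgeR adjusted p = 0.0107), in a class where 1.83% of tested genes were called higher and 0.188% lower. Without vehicle mouse 1 the change was 0.69 and the adjusted p from edgeR 0.138.

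In the *Orm1*-led class *Gfi1* had 27.7 and 27.6 CPM in vehicle mice and 48.5 and 60.0 CPM in PM mice (log2 fold change 0.80 ± 0.14, edgeR adjusted p = 0.00434, 2.79% of genes called higher and 0.74% lower). Both PM mice again exceeded both vehicle mice. In immature neutrophils the values were 9.09 and 10.3 CPM against 20.4 and 21.2 CPM (log2 fold change 1.01 ± 0.16, edgeR adjusted p = 0.00209, 6.47% of genes called higher and 2.55% lower). In mature neutrophils *Gfi1* was low, with 19 and 12 UMIs in vehicle mice and 58 and 49 UMIs in PM mice.

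These mature cells held 1.81 and 1.996 CPM of *Gfi1* against 8.13 and 7.15 CPM (log2 fold change 2.06 ± 0.31, edgeR adjusted p = 0.0106, 4.21% of genes called higher and 2.11% lower). The adjusted p from edgeR was 0.109 without PM mouse 1 and 0.0838 without PM mouse 2, with changes of 1.93 and 2.15. Cells with a *Gfi1* UMI made up 0.697% and 0.595% of the mature neutrophils of vehicle mice and 2.10% of those of either PM mouse. In classical monocytes, the class read as background, 0.481% to 3.19% of cells had a UMI, at a median of 8843 UMIs per cell against 2866 in mature neutrophils. The shares in mature neutrophils lay within that range. At 1000 UMIs per cell they were 0.0745% and 0.274% against 1.01% and 0.796%, and those of classical monocytes ran from 0 to 0.533%. Mean *Gfi1* in classical monocytes was 1.02 CPM in vehicle and 3.23 CPM in PM mice, beside 1.90 and 7.64 CPM in mature neutrophils. The pair in classical monocytes was under the count filter and was not tested.

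In GMP with neutrophil markers, where *Gfi1* peaked, it was 255 and 206 CPM in vehicle mice against 256 and 371 CPM in PM mice. Both PM mice were higher, but vehicle mouse 1 and PM mouse 1 were almost level. The pair was not called (log2 fold change 0.39 ± 0.15, edgeR adjusted p = 0.255). There 0.655% of tested genes were called higher, and without PM mouse 1 the pair was called (0.59, edgeR adjusted p = 0.0058). Markers of the GMP and promyelocyte stage moved beside *Gfi1*. In the early class 7 of 8 were higher in both PM mice than in both vehicle mice (summed level 1.57 and 1.48 per 1000 UMIs against 2.36 and 1.87), and none was at 0. In the *Orm1*-led and immature classes 7 of 8 were likewise higher, at 0.467 and 0.457 against 0.689 and 0.680, and at 0.5004 and 0.485 against 0.617 and 0.590. In mature neutrophils 6 of 8 were higher and 1 lower, and their summed level ran from 2.42 to 2.66 in vehicle mice and from 2.01 to 2.09 in PM mice. The part of these earlier transcripts in the *Gfi1* result was not tested. The share of all genes higher in both PM mice was not counted, so these marker counts have no background beside them. With library sizes only, the median log2 fold change over all genes was 0.065 in early, 0.156 in *Orm1*-led and 0.113 in immature neutrophils. In mature neutrophils that median was -0.056.

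The 250 bases before a *Gfi1* transcription start are shown because the gene rose in 4 classes, beside those of *Cebpa* and *Runx1*, also called (RefSeq, GRCm38.p6, 5′ to 3′ in the sense of the gene). The windows are chr5:107724344-107724593 (minus strand) for *Gfi1*, chr7:35119043-35119292 (plus strand) for *Cebpa* and chr16:92697330-92697579 (minus strand) for *Runx1*; none overlaps an annotated exon of its gene. Capitals mark CCAAT on either strand.
Gfi1: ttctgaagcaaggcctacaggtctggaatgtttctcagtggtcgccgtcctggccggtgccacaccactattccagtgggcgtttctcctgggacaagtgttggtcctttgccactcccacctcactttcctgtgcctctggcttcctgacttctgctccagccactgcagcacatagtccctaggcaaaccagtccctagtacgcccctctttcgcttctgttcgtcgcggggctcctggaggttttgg
Cebpa: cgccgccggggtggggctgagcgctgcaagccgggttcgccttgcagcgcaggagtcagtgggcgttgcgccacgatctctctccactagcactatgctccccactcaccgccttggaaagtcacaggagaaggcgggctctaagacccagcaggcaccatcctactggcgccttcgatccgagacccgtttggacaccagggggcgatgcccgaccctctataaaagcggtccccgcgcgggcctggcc
Runx1: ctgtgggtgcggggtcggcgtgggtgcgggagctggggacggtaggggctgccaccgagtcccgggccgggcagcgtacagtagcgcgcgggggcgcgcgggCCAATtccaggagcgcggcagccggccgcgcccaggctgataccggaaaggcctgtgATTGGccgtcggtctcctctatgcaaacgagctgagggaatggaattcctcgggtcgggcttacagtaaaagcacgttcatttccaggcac
Both strands were searched for the letters of a C/EBP motif (TTGCNNAA), a PU.1 motif (GAGGAAGT), a KLF motif (GGGTGTGG) and CCAAT. The *Runx1* window shown held 2 CCAAT matches, 1 on each strand, and 33.9% of the 32851 promoter windows of this length held at least 1. The window of the other *Runx1* start, chr16:92826075-92826324, overlaps an annotated exon and is not shown. It also held 2 CCAAT matches, 54 and 65 bases before that start. The *Gfi1* and *Cebpa* windows shown held none of the motifs searched. The window of the other *Gfi1* start in RefSeq, chr5:107725806-107726055, which overlaps an annotated exon and is not shown, held 1 C/EBP match 143 bases before that start. Of all windows 9.56% hold the C/EBP letters, 2.44% the PU.1 letters and 3.2% the KLF letters.

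*Cebpe* (chromosome 14, 54710360 to 54712174, minus strand) rose late in the neutrophil line. In early neutrophils, its peak, the vehicle mice had 642 and 613 CPM and the PM mice 659 and 691 CPM, a log2 fold change of 0.03 ± 0.13 (edgeR adjusted p = 0.929). In immature neutrophils it had 226 and 278 CPM against 359 and 418 CPM (log2 fold change 0.51 ± 0.13, edgeR adjusted p = 0.0290). That call was near the threshold on fold change and was lost at 0.38 without vehicle mouse 1 (edgeR adjusted p = 0.242), at 0.46 without PM mouse 2, at 0.48 with no filter on low counts and at 0.39 with the members kept for clustering (edgeR adjusted p = 0.0810). With the replicate number as a block the adjusted p from edgeR was 0.0594.

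In mature neutrophils *Cebpe* stood at 34.4 and 42.4 CPM in vehicle mice and at 90.8 and 94.4 CPM in PM mice, with no overlap. The log2 fold change was 1.33 ± 0.14 (edgeR adjusted p = 0.00344). Cells with a *Cebpe* UMI were 6.60% and 8.98% of the mature neutrophils of vehicle mice and 15.7% and 16.9% of those of PM mice. At 1000 UMIs per cell the shares were 1.90% and 3.62% against 6.47% and 6.37%. In mature B cells, which should lack *Cebpe*, 1.63% to 2.62% of cells had a UMI. In T, NK and erythroid cells, which should also lack it, the ranges were 2.84% to 9.44%, 2.99% to 12.2% and 4.39% to 19.6%. These ranges, before thinning, took in the vehicle shares of mature neutrophils, and the erythroid range the PM shares as well. In the stromal class mean *Cebpe* was 106 CPM in vehicle and 216 CPM in PM mice, and 11.9% to 29.6% of cells had a UMI. At 1000 UMIs per cell the mean share of the 4 mice was 9.55% in stromal and 3.68% in erythroid cells. It was 2.98% in NK, 1.77% in T and 0.657% in mature B cells.

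The mature class was made of 4 clusters, and the mix differed between mice. The cluster led by interferon-induced *Ifit1* numbered 131 and 67 cells under vehicle and 516 and 336 under PM, and that led by *Ptgs2* numbered 232 and 409 against 146 and 116. *Cebpe* was higher in both PM mice in each of the 4: in the *Steap4*-led cluster 10.8 and 23.3 CPM against 58.4 and 54.2, in the *Prok2*-led cluster 51.1 and 59.1 against 105 and 118. In the *Ifit1*-led cluster it was 37.5 and 68.2 CPM against 133 and 156. In the *Ptgs2*-led cluster it was 11.2 and 31.3 CPM against 50.6 and 48.2 (edgeR adjusted p = 0.268). *Gfi1* in the *Ifit1*-led cluster was 7.14 and 3.79 CPM against 9.72 and 6.82, with overlap. *Cebpa* there was 5.35 and 18.93 CPM against 11.02 and 9.38, also with overlap. In the *Steap4*-led and *Prok2*-led clusters *Gfi1* and *Cebpa* were higher in both PM mice. In the *Ptgs2*-led cluster *Gfi1* was 3.72 and 4.63 CPM against 13.8 and 9.64, and *Cebpa* 5.58 and 9.26 against 23.0 and 24.1. In the *Ptgs2*-led and *Ifit1*-led clusters these 2 genes rested on few UMIs per mouse, so a rise is not shown there.
Fits of single clusters, and the fit without some of them, were chosen after the data had been seen. Without the *Ifit1*-led and *Ptgs2*-led clusters the log2 fold change was 1.09 for *Cebpe*, 2.38 for *Gfi1* and 1.02 for *Cebpa*. The edgeR adjusted p-values were 0.00529, 0.00707 and 0.0311, in that order. The part of the cluster mix in the rise was not tested.

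*Cebpa*, an intronless gene on chromosome 7 from 35119293 to 35121928, was low in neutrophils after the progenitor stage. In mature neutrophils the vehicle mice had 7.79 and 10.3 CPM and the PM mice 14.6 and 18.7 CPM (log2 fold change 0.95 ± 0.22, edgeR adjusted p = 0.0434). The change was 1.09 without PM mouse 1 and 0.76 without PM mouse 2, with adjusted p-values from edgeR of 0.157 and 0.265, and 0.0582 with the replicate number as a block. DESeq2 gave an adjusted p of 0.0988, and edgeR 0.0503 with library sizes only and 0.0604 with the members kept for clustering. The call held in 7 of 13 refits. In early neutrophils it was 5.07 and 7.40 CPM against 11.4 and 12.9 CPM (log2 fold change 0.92 ± 0.22, edgeR adjusted p = 0.0620). In its peak class, the basophil-like cells, it was 369 and 396 CPM against 316 and 495 CPM, with overlap (log2 fold change 0.06 ± 0.21, edgeR adjusted p = 0.999; 0.0739% of genes called in either direction).

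Markers of early neutrophils, such as granule and cycle genes, were again read beside these. In the mature class 4 of 10 early markers were higher in both PM mice, none was lower or at 0, and their sum was 8.13 and 5.38 per 1000 UMIs in vehicle mice and 9.79 and 11.7 in PM mice. Immature markers were higher in 4 of 9, at 54.0 and 45.4 against 59.8 and 53.7. Their part in the rise of *Gfi1*, *Cebpe* and *Cebpa* was not tested. The share of all genes higher in both PM mice was not counted here either.

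*Cebpd* did not pass the test in any class. In mature neutrophils it had 493 and 574 CPM in vehicle mice and 687 and 655 CPM in PM mice (log2 fold change 0.39 ± 0.16, edgeR adjusted p = 0.161), and in immature neutrophils 300.0 and 336 against 368 and 380.4. Both PM mice stood above both vehicle mice there. *Spi1* in mature neutrophils had 632 and 617 CPM against 542 and 576 CPM (log2 fold change -0.11 ± 0.16, edgeR adjusted p = 0.710). Across the neutrophil classes its log2 fold change ran from -0.17 in GMP with neutrophil markers to -0.11.

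**Figure D2:**
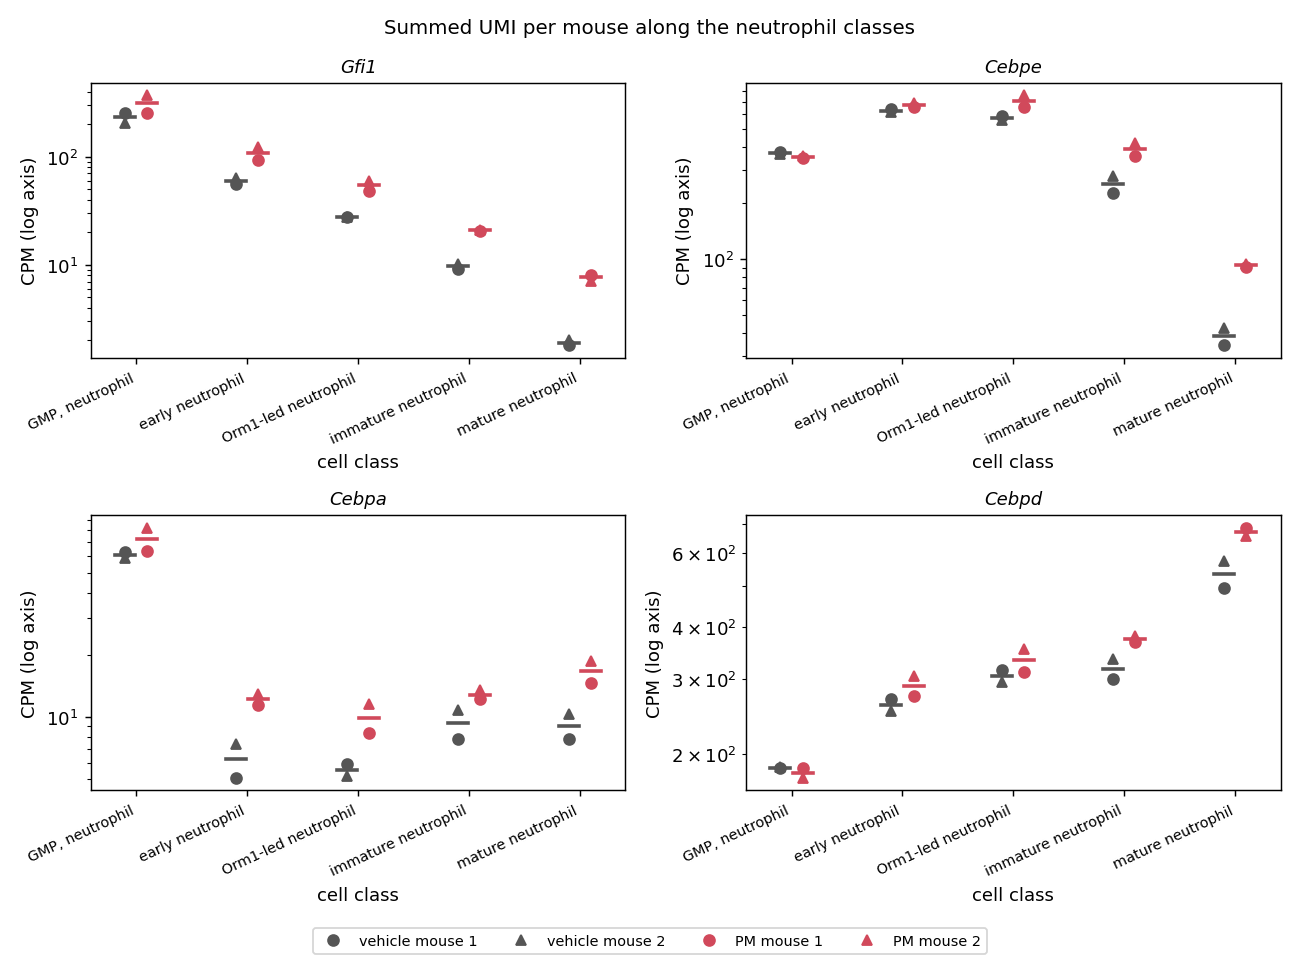
CPM on a log axis (vertical) of 4 members in each mouse along 5 neutrophil classes (horizontal); grey is vehicle, red is PM, circles are mouse 1, triangles mouse 2, and bars the mean of 2 mice. *Gfi1* of both PM mice lay above both vehicle mice in the 4 classes after the progenitors, and only narrowly so in the progenitors. *Cebpe* separated most in mature neutrophils (34.4 and 42.4 against 90.8 and 94.4 CPM).

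The PM effect was compared between stages in 1 fit, as an interaction. *Gfi1* rose less in early than in mature neutrophils, with an early minus mature difference of log2 fold change of -1.25 ± 0.29 (edgeR adjusted p = 0.0160), and *Cebpe* did so by -1.30 ± 0.14 (edgeR adjusted p = 2.67e-05). In this comparison 2.61% of 11091 genes were called in that direction (2.53% in the other) and 2 of 9 members tested. Without PM mouse 1 the *Gfi1* difference was -1.02 (edgeR adjusted p = 0.0827). The *Cebpa* difference was -0.01 ± 0.30 and the *Cebpd* difference -0.31 ± 0.14 (edgeR adjusted p = 0.994 and 0.205).

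In monocytes the called members were *Runx1* and *Cebpe*. *Runx1* (chromosome 16, 92601466 to 92826149, minus strand) was the member called lower: classical monocytes had 141 and 125 CPM in vehicle mice and 84.6 and 85.7 CPM in PM mice. The log2 fold change was -0.66 ± 0.13 (edgeR adjusted p = 0.0224), where 0.765% of tested genes were called lower and 1.67% higher. The adjusted p from edgeR was 0.0750 without vehicle mouse 1, 0.208 without PM mouse 1 and 0.141 without PM mouse 2, at changes of -0.56, -0.70 and -0.64. Cells with a *Runx1* UMI made up 64.4% and 59.9% of classical monocytes in vehicle mice and 43.2% and 48.6% in PM mice. At 1000 UMIs per cell the shares were 13.5% and 11.9% against 9.45% and 8.24%.

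*Cebpe*, a neutrophil factor, rose in classical monocytes from 16.2 and 13.9 CPM to 50.2 and 35.4 CPM (log2 fold change 1.52 ± 0.22, edgeR adjusted p = 0.00630). Without PM mouse 1 the change was 1.16 and the adjusted p from edgeR 0.151. It also rose in GMP with monocyte markers, from 31.1 and 23.7 CPM to 69.4 and 54.0 CPM (log2 fold change 1.15 ± 0.18, edgeR adjusted p = 0.0286, 0.327% of genes called higher and 0.0441% lower). With finer clustering (Leiden resolution 1.5) the GMP change was 1.31 and the adjusted p from edgeR 0.105. The cycling monocyte progenitors between these classes had 29.1 and 39.1 CPM against 42.6 and 37.4 CPM (log2 fold change 0.22 ± 0.17, edgeR adjusted p = 0.694, 1.24% of genes called higher), with overlap.

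Neutrophil RNA was measured in the same monocyte cells. The sum of *S100a8*, *S100a9*, *Camp*, *Ngp*, *Ltf* and *Lcn2* was 21.9 and 7.38 per 1000 UMIs in classical monocytes of vehicle mice and 38.4 and 16.7 in PM mice. In GMP with monocyte markers it was 6.20 and 7.60 against 22.9 and 7.88, so that PM mouse 1 stood apart. There 8 of 9 immature neutrophil markers were higher in both PM mice and none was at 0 (summed 1.35 and 1.85 per 1000 against 5.93 and 2.14), while in classical monocytes 2 of 9 were. The part of neutrophil RNA in the *Cebpe* result was not tested. For these marker counts too, the share of all genes higher in both PM mice was not counted.

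Cells with a *Cebpe* UMI made up 7.56% and 9.62% of classical monocytes in vehicle mice and 19.7% and 21.6% in PM mice. The T cells, which should lack the gene, had 2.84% and 3.38% against 9.44% and 4.01%, at a median of 3531 UMIs per cell against 8843 in classical monocytes. At 1000 UMIs per cell the monocyte shares were 1.34% and 1.21% against 3.99% and 1.79%, and those of T cells 0.490% and 1.46% against 3.38% and 1.74%. At that depth the 2 classes overlapped.

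*Cebpa* in classical monocytes was 98.6 and 111 CPM against 81.2 and 94.8 CPM, not called (log2 fold change -0.27 ± 0.13, edgeR adjusted p = 0.357). The PM effect on *Cebpa* differed between monocytes and mature neutrophils by -1.19 ± 0.20 on the log2 scale (edgeR adjusted p = 0.0244), monocytes minus neutrophils, where 0.928% of genes were called in that direction and 0.592% in the other. Leaving out vehicle mouse 1, PM mouse 1 or PM mouse 2 gave -1.12, -1.31 and -1.07 with edgeR adjusted p-values of 0.0790, 0.0683 and 0.0724. The difference for *Runx1* was -0.54 ± 0.15 (edgeR adjusted p = 0.119), so its fall was not shown to differ from mature neutrophils.

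*Klf4*, the monocyte factor, stood at 214 and 288 CPM in classical monocytes of vehicle mice and at 332 and 410 CPM in PM mice (log2 fold change 0.55 ± 0.16, edgeR adjusted p = 0.113). Both PM mice were higher, but the test was not passed. In cycling monocyte progenitors, its peak, it had 467 and 575 CPM against 539 and 665 CPM, with overlap (log2 fold change 0.17 ± 0.15, edgeR adjusted p = 0.747). *Cebpd* in classical monocytes was 197 and 213 CPM against 271 and 268 CPM (log2 fold change 0.38 ± 0.12, edgeR adjusted p = 0.155). *Cebpb* in non-classical monocytes, 147 cells in all, was 2744 and 2293 CPM against 1883 and 3009 CPM (log2 fold change 0.02 ± 0.25, edgeR adjusted p = 0.995, 0.628% of genes called higher).

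**Figure D3:**
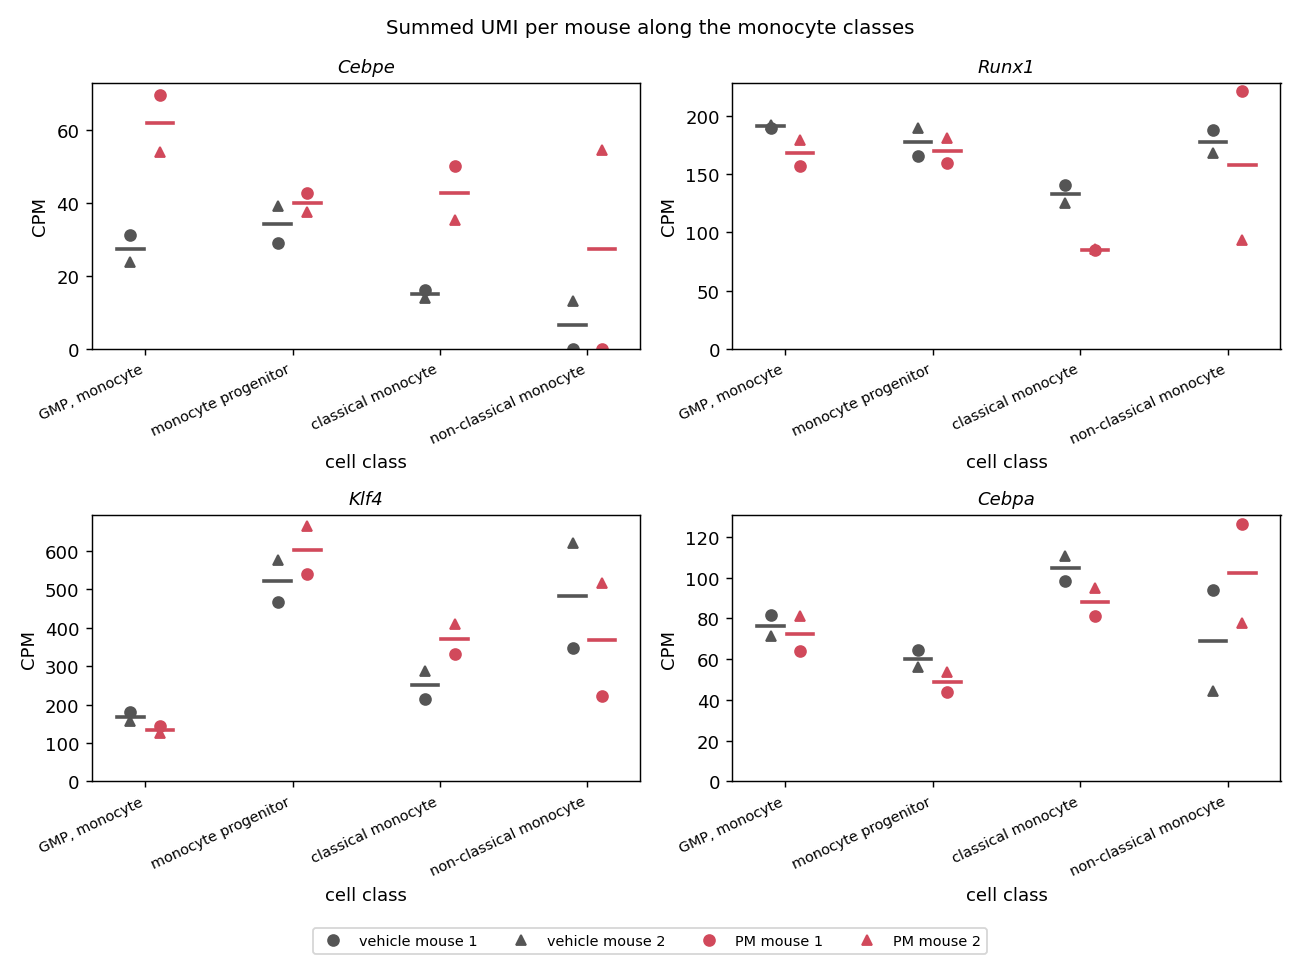
CPM (vertical, from 0) of 4 members in each mouse along 4 monocyte classes (horizontal); grey is vehicle, red is PM, circles are mouse 1, triangles mouse 2, and bars the mean of 2 mice. In classical monocytes *Runx1* of both PM mice (84.6 and 85.7 CPM) lay below the vehicle mice, and *Cebpe* and *Klf4* lay above.

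The GATA factors and *Runx1* in their highest classes did not pass the test. *Gata1* in erythroid cells was 166 and 170 CPM against 158 and 173 CPM (log2 fold change -0.10 ± 0.15, edgeR adjusted p = 0.813, 0.086% of genes called higher). *Gata2* in basophil-like cells was 1795 and 2069 CPM against 1612 and 2734 CPM (log2 fold change 0.15 ± 0.26), and *Runx1* was 824 and 1085 CPM against 615 and 921 CPM (-0.33 ± 0.23), with edgeR adjusted p-values of 0.999 and 0.955. In HSPC *Gata2* was 292 and 247 CPM against 305 and 409 CPM (log2 fold change 0.41 ± 0.14, edgeR adjusted p = 0.801, 0.0746% of genes called higher).

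A lymphoid pair was called as well. In pro-B and pre-B cells *Cebpe* was 38.1 and 25.3 CPM in vehicle mice and 58.6 and 42.5 CPM in PM mice (log2 fold change 0.90 ± 0.29, edgeR adjusted p = 0.0499, 5.6% of genes called higher and 4.55% lower). Neutrophil RNA there was 35.6 and 25.9 per 1000 UMIs against 35.5 and 27.1. Single neutrophil genes were called higher in the same cells: *Camp* (log2 fold change 0.70 ± 0.15, edgeR adjusted p = 0.00359) and *Chil3* (0.71 ± 0.17, edgeR adjusted p = 0.00881). Their part in the *Cebpe* result was not tested. The class held 480 cells of vehicle mouse 2 and 82 to 174 of each other mouse. Without vehicle mouse 2 the change was 0.48 and without PM mouse 1 it was 0.61, with edgeR adjusted p-values of 0.623 and 0.428. Without vehicle mouse 1 it was 1.04 (edgeR adjusted p = 0.0646).

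**Figure D4:**
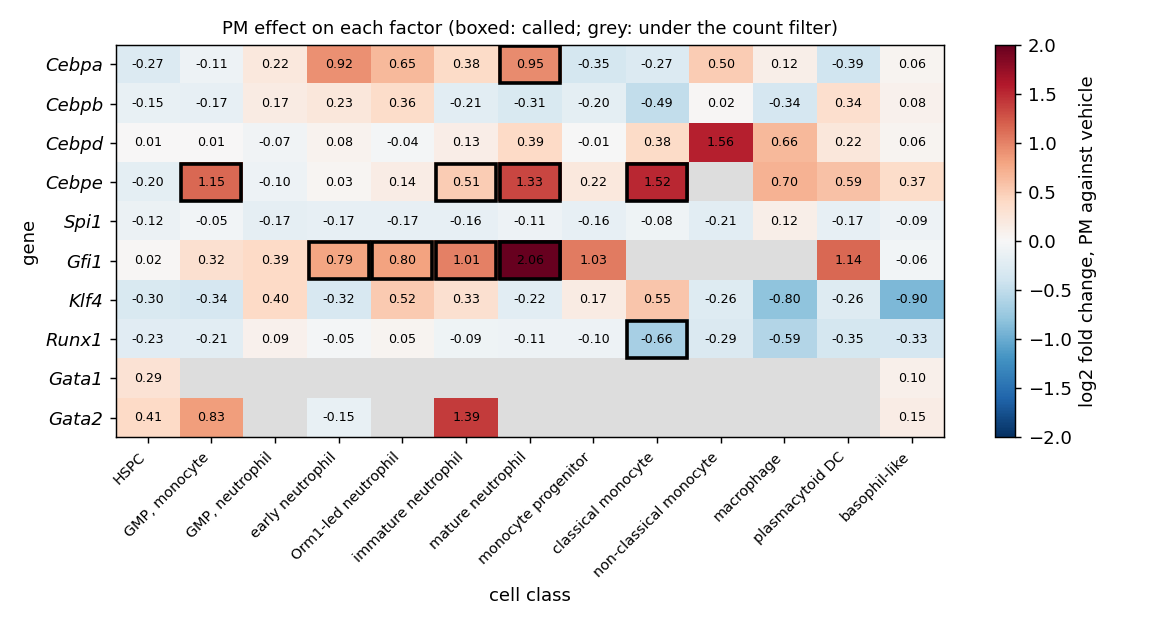
Log2 fold change of PM against vehicle (colour and printed number) for the 10 members (rows) in 13 progenitor and myeloid classes (columns); black boxes mark called pairs and grey cells those under the count filter. The *Gfi1* row is called from early (0.79) to mature neutrophils (2.06), and *Runx1* in classical monocytes (-0.66) is the called fall.

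Genes around the members were counted on 4 lists. Of the 22 partners, relatives and opponents, 1 of 318 tested pairs over the 21 classes was higher and 5 were lower, beside 1.42% and 0.612% of all pairs. All 6 were in pro-B and pre-B cells, where 5.6% of all genes were called higher and 4.55% lower. The largest changes among these were in pro-B and pre-B cells: *Runx3* (log2 fold change 1.60 ± 0.31), the PU.1 relative *Spib* (-1.43 ± 0.20) and *Trib2* (-1.21 ± 0.22). Among 32 other myeloid regulators, 8 of 23 tested were higher in immature neutrophils (34.8%, beside 6.47% of all genes) and 4 of 24 in mature neutrophils (16.7%, beside 4.21%). Mean CPM of the 8 in immature neutrophils was 145 for *Jun*, 94.9 for *Fos*, 37.9 for *Erg* and 34.5 for *Id1*. It was 14.9 for *Egr1*, 8.99 for *Irf5*, 1.73 for *Maf* and 1.55 for *Myc*. In mature neutrophils it was 265 for *Jun*, 12.1 for *Maf*, 11.3 for *Myb* and 5.53 for *Erg*. This list, like the others, was chosen with earlier results of these data known. Over all classes 22 pairs were higher and 5 lower, beside 1.42% and 0.612% of all pairs. The list's median log2 fold change was 0.45 and 0.54 in these classes, beside 0.00604 and -0.00316 over all genes tested. In classical monocytes 2 of 26 were higher and the median was -0.10.

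By the rule of largest change over all classes, *Myc* (1.84 ± 0.28), *Junb* (-1.66 ± 0.23) and *Ets2* (-1.35 ± 0.31) were named from that list, all in pro-B and pre-B cells. Of the granule and receptor genes known as C/EBP or PU.1 targets, 17 of 437 tested pairs were higher and 3 lower. In mature neutrophils 3 of 22 were higher (4.21% of all genes), in the *Orm1*-led class 3 were higher and 1 lower (2.79% and 0.74%), and in immature neutrophils 1 was lower (2.55%). In non-classical monocytes 4 of 18 were higher and 1 lower (0.628% and 0.0856%). The 3 named were *Chil3* (5.56 ± 0.71) and *Camp* (5.45 ± 0.50) in the 111 cells of the megakaryocyte and platelet class and *Mmp9* (1.94 ± 0.31) in non-classical monocytes. Neutrophil RNA in these classes was 18.8 and 2.97 per 1000 UMIs against 36.3 and 67.7, and 7.57 and 14.4 against 52.4 and 56.4. Of the GATA targets, *Cpa3* was lower in basophil-like cells (-1.09 ± 0.24) and *Hdc* lower in early neutrophils (-0.74 ± 0.13). *Hdc* was also the list's 1 higher pair of 164 tested, in GMP with monocyte markers (0.72 ± 0.14, edgeR adjusted p = 0.0420), and 2 were lower, beside 1.42% and 0.612% of all pairs.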

How the data were processed

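Droplet 3′ libraries of bone marrow (2 vehicle and 2 PM mice) were aligned and counted by the authors with Cell Ranger 6.0.1 (per the file headers), which uses STAR. The study's methods name GRCm38 and the submitters' processing notes GRCm39, so gene positions here are from GENCODE vM21 (GRCm38) by gene identifier. The deposited values are raw UMI counts per gene and cell, 69828595 to 109447030 per library. Barcodes under 300 genes or over 20% mitochondrial UMIs were dropped; the rest were scored for doublets (removed only as an alternative; the score recovered 29.8% to 48.2% of simulated doublets), and clustered jointly with scanpy 1.11.5 (30 components, Leiden resolution 1) without the 10 members. Clusters were named from marker lists. Counts were summed per mouse and class and fitted with edgeR 4.0.16 (TMM, filterByExpr, quasi-likelihood, adjusted over all genes tested). The SE beside a fold change was derived as its absolute size divided by the square root of the test's F statistic. DESeq2 1.42.0, other scalings, filters, clusterings and each mouse left out were alternatives. The fit was tested on simulated data: in mature neutrophils 40.5% of 200 genes changed by 1 on the log2 scale were recovered, and 89.0% at 2. There 10 and 21 unchanged genes were called as well. In the other classes simulated, 8 to 24 unchanged genes were called, and recovery at 1 was 61.5% to 77%. Named were all 10 members, in full in their highest class and wherever called; list genes were the 3 called with the largest change per list at 20 CPM or more. Members and lists were chosen with earlier results of these data known. Shares of cells were also taken after thinning to 1000 UMIs, which left out 1261 cells. Intervals and floors cover counting error only. The study's methods give 2 vehicle and 2 PM mice, and each library was taken as 1 mouse. Promoter windows came from RefSeq (7 of 10 members).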

Additional observations from a re-analysis of the deposited data

Results flagged for a closer look

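The PM effect differed between cell stages for 3 member results by the test of the difference itself. For *Gfi1* the early minus mature neutrophil difference was -1.25 (log2) and for *Cebpe* it was -1.30. For *Cebpa* the classical monocyte minus mature neutrophil difference was -1.19. Groups of 2 mice are too small for the test of a single deviating sample.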

How the results depend on the processing

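The 14 called results were 11 member and class pairs and 3 differences between stages. In the 185 refits that could be run they kept their direction, and in 149 of them their call. A pair under the count filter in a refit was left out. The 185 include fits of single clusters, and of the mature class without some clusters, chosen after the data had been seen. Counts given as out of 13 refits leave those fits out. The 10 pairs called higher ranged from 10 to 20 when each mouse was left out (20 without vehicle mouse 1), and the 1 pair called lower from 0 (without vehicle mouse 1 or PM mouse 2) to 3 (without vehicle mouse 2). The lower pairs were 3 with no filter on low counts. The members called in early against mature neutrophils ranged from 1 to 3, and in monocytes against mature neutrophils from 0 to 1. Leaving out a mouse leaves 1 mouse in a group, assumed to vary like the other group. The cause of these moves was not tested.

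Uncalled results changed sign as follows. *Cebpb* in non-classical monocytes was -0.026 with library sizes only, -0.11 with no filter, -0.011 with the replicate block, and from -0.37 to 0.27 with each mouse left out. With each mouse left out, *Cebpa* and *Gata2* in basophil-like cells ranged from -0.26 to 0.32 and from -0.24 to 0.45, and *Cebpe* in early neutrophils from -0.0071 to 0.085. *Spi1* in the *Ptgs2*-led cluster alone, chosen after seeing the data, was 0.043.

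The replicate numbers only name the mice: the correlation of same-numbered deviations ran from -0.15 to 0.28 over the classes. With the replicate block 9 pairs were called higher and 1 lower. Under that block all genes called higher went from 651 to 501 in immature neutrophils. In GMP with neutrophil markers they went from 71 to 278. The class with the highest share of cells with a UMI was the class of highest CPM for 5 of 10 members, and for 9 at 1000 UMIs per cell. By the mean over cells the highest class was the same for 8 of 10. *Cebpe* in pro-B and pre-B cells kept its call in 3 of 13 refits.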
